A study of Homo sapiens with 5 samples.

Results

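The library from human induced pluripotent stem cells (iPSCs) exposed to etoposide was compared with the library of the vehicle control over all 288391 windows of 1000 bases in which CpG methylation was measured, which is every window of the series. Cells of the established iPSC line 201B7 (HPS0063), given as wild type and kept without feeder cells, were exposed for 48 h to 1 nM etoposide or to 0.1% DMSO as the vehicle. The paper's methylation array was run on iPSCs carrying a fluorescent methyl-CpG-binding reporter (mCherry-MBD-nls). Its methods for the sequencing used here do not say whether the cells carried it. The study prepared 5 libraries in all, and the other 3 came from cells exposed to propyl gallate at 1 µM, to theophylline at 1 µM or to the DNA methyltransferase inhibitor 5-aza-dc (5-aza-2′-deoxycytidine) at 10 nM. Each condition has 1 library, so there is no replicate spread within a condition. Every difference between etoposide and vehicle is therefore set beside the same measure in the other 4 libraries, which differ from each other both by chemical and by library, and treatment and library cannot be told apart.

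Etoposide stabilizes the intermediate in which a type II topoisomerase is joined to the broken ends of both DNA strands, and so leaves double-strand breaks that are signalled through ATM and p53. CpG methylation is copied after replication by DNMT1, set anew by DNMT3A and DNMT3B and removed by way of the TET enzymes. In most mammalian cells CpG islands at promoters are unmethylated, most other CpG sites are methylated, and imprinted control regions carry methylation on a single parental allele, which gives an intermediate level. In reduced representation bisulfite sequencing (RRBS), MspI cuts the DNA at CCGG, so CpG-rich fragments are enriched, and bisulfite converts unmethylated cytosines, so that the share of unconverted calls is the methylation level (the β-value, given here in percent).

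The promoters below belong to windows that recur in the results, 3 of them in windows that fell against the vehicle (REC8, COPS9 and GSPT1) and 2 in windows of imprinted genes in which the etoposide library lay above the other 4 (PLAGL1 and GNAS). The sequences are from RefSeq (GRCh38.p14), run 5′ to 3′ on the strand of the gene from 250 bases before to 50 bases after a start, and have each CG in capitals. They lie at chr14:24171830-24172129 on the plus strand for REC8, chr2:240136256-240136555 on the minus strand for COPS9, chr16:11915907-11916206 on the minus strand for GSPT1, chr6:144008210-144008509 on the minus strand for PLAGL1 (a start shared with HYMAI) and chr20:58888163-58888462 on the plus strand for GNAS. Of the 300 bases, 129 lie inside the measured window for REC8 and 206 for GSPT1, and all 300 for the other three.
REC8: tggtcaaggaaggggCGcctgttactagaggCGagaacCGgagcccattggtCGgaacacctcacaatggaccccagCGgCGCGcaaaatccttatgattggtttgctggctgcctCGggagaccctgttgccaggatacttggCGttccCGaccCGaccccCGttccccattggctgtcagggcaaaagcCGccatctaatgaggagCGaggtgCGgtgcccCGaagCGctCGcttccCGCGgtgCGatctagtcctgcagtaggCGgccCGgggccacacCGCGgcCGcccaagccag
COPS9: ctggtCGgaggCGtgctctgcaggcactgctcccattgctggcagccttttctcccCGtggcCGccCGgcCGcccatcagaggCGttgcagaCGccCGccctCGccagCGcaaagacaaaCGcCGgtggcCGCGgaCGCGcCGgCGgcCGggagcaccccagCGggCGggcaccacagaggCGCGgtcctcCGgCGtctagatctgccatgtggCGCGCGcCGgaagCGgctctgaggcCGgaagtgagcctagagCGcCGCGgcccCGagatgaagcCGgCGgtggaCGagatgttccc
GSPT1: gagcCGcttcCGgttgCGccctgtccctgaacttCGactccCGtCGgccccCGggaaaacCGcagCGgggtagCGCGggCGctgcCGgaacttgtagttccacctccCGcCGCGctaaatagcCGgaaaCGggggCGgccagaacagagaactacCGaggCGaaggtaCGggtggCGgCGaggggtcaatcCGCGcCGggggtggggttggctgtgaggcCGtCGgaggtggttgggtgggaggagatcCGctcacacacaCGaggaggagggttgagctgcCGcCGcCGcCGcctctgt
PLAGL1: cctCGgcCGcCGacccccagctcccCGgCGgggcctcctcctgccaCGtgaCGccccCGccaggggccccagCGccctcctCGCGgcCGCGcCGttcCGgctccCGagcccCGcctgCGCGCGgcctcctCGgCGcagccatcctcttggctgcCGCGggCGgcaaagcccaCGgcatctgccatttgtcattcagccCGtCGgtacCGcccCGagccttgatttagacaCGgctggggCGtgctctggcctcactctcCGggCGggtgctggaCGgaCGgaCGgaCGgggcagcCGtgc
GNAS: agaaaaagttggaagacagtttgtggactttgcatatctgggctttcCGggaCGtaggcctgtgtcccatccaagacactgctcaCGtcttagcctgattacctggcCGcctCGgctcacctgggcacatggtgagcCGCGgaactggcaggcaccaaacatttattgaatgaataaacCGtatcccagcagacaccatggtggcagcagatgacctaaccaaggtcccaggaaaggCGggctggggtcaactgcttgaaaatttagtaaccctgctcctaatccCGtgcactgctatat
The REC8 stretch holds 26 CpG sites, COPS9 39, GSPT1 35, PLAGL1 39 and GNAS 10, against a median of 14 over the 35116 promoters of this length in the same table. The MspI site CCGG, which reads the same on both strands, occurs 2 times in REC8, 8 times in COPS9, 5 times in GSPT1, 3 times in PLAGL1 and once in GNAS. Of all these promoters 63.1% hold at least 1 CCGG. Other starts touch the same windows. For GSPT1 the stretch chr16:11916605-11916904 lies wholly inside the window and holds 8 CpG sites and 2 CCGG. For COPS9 the stretch chr2:240136298-240136597 holds 35 CpG sites. For GNAS the stretch chr20:58888930-58889229 has 71 bases inside the window and holds 43 CpG sites.

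The windows held 228919184 calls in the vehicle library and 188844850 in the etoposide library, with 193797104 to 205207822 in the other three. A call is 1 cytosine in 1 read, several calls can come from the same molecule, and intervals and tests on calls cover counting error only. A window had a median of 499 calls in the vehicle and of 413 in the etoposide library. Of the 10 pluripotency genes whose promoters were checked against the label of the cells, 8 had a promoter window, and 6 of these (SOX2, LIN28A, DPPA4, L1TD1, DNMT3B and SALL4) were between 0.194% and 9.38% methylated in every library. ZFP42 lay between 15.0% and 24.2%. The windows at the annotated start of POU5F1, the gene of OCT4, did not share the low level of those 6 genes, at 88.7% to 92.1% in the 5 libraries. They include chr6:31180001-31181000, and whether this start is in use in these cells was not tested. Of 7 genes of differentiated cells, 3 had a promoter window (COL1A1, COL1A2 and MYOD1). Their promoters were also low, at 2.23% to 8.47%, so the promoters measured do not separate the cell types.

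Over the genome the etoposide library was slightly more methylated than the vehicle, at a mean window level of 79.9% against 79.4%. The difference was 0.513 percentage points (95% interval for counting 0.503 to 0.523), with a median over windows of 0.338 points, and 54.9% of the windows were higher and 44.4% lower. It was positive on all 23 chromosomes measured (the autosomes and X), from 0.416 points on chromosome 17 to 0.644 points on chromosome 4. The propyl gallate and theophylline libraries were also above the same vehicle on every chromosome, by 0.475 and 0.887 points on chromosome 17 and by 0.686 and 1.05 points on chromosome 4. On none of the 23 was the etoposide library the highest or the lowest of the 5. The propyl gallate library had a mean level of 79.9%, the theophylline library of 80.4% and the 5-aza-dc library of 78.4%, and the 3 pairs without etoposide and 5-aza-dc differed by 0.410 to 0.975 points. The mean difference between etoposide and vehicle was thus within the range of the differences among these other libraries.

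The difference was smaller at CpG islands than in windows outside them. Islands went from 41.5% in the vehicle to 41.7% in the etoposide library, a difference of 0.178 points. Shores, the flanks of islands, went from 82.1% to 82.5%, shelves from 86.9% to 87.5% and windows outside these classes from 88.1% to 88.7%. Propyl gallate differed from the vehicle by 0.176 points in islands and 0.675 outside these classes, theophylline by 0.442 and 1.11, and 5-aza-dc by -0.969 and -0.995. The smaller difference at islands was thus not particular to etoposide. Windows annotated as promoters differed by 0.270 points, those in introns by 0.561 points and intergenic windows by 0.581 points. Promoters inside islands differed by 0.0555 points, from 19.3% to 19.3% as rounded, whereas promoters outside islands went from 77.3% to 77.9%. The 345 windows annotated as 5′ UTR were the exception among the 12 classes, at 43.3% in the vehicle and 43.1% in the etoposide library, and with at least 100 calls in every library this difference turned to 0.161 points higher. In each of the 12 classes the etoposide library lay inside the range of the other 4. By the mean level in the other 4 libraries, the 172322 windows at 90% to 100% differed by 0.234 points, close to the islands, and the 70674 windows at 70% to 90% by 1.48 points. In that last class the etoposide library was the highest of the 5, at 86.6% against 83.3% to 86.4%. The level in the etoposide library was not used to set these classes, whereas those of the other 4 were. The difference and the rank of the etoposide library in a level class depend on this choice, so no conclusion is drawn from them.

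Single windows were tested between the 2 libraries with a two-sided Fisher's exact test adjusted over all windows by the Benjamini-Hochberg procedure, which compares these libraries and not the conditions. An adjusted p under 0.01 was reached by 29166 windows (10.1%), most of them with small differences, and 550 windows (0.191%) also differed by at least 25 percentage points, 288 of them higher and 262 lower in the etoposide library. The 3 pairs of libraries without etoposide and 5-aza-dc gave 503 to 510 such windows, and the 6 pairs without etoposide 503 to 1086. The root mean square difference over windows was 5.28 points for etoposide against vehicle and 5.12 to 5.16 points for those 3 pairs. By number and by size, the window differences between etoposide and vehicle were therefore close to those between other libraries.

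The called windows were not only etoposide's. In the 288 windows called higher, the vehicle was farther than etoposide from the median of the other 3 libraries in 204 and etoposide in 84. In the 262 called lower, etoposide was farther in 189 and the vehicle in 73. Whichever library was the lower of the pair was the farther one in 71.5% of the called windows, and this share was 67.4% to 82.0% in the 6 pairs without etoposide. The called windows were also shallow, with a median of 82 calls in the vehicle and 64 in the etoposide library, and 78 of the 550 had at least 100 calls in every library. Of the windows just inside the limit of 25 points, that of C1QC differed by 25.4 points, and just outside it that of TRPV3 differed by 24.99 points and that of PLAGL1 by 24.9 points.

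Among windows with at least 100 calls in every library, an adjusted p under 0.01 and an etoposide level outside the range of the other 4, the 10 largest rises went from 31.1 to 55.1 points and the 10 largest falls from 29.9 to 49.7 points. The levels in the text run in the order vehicle, etoposide, propyl gallate, theophylline and 5-aza-dc. In 4 of the 10 rises and 1 of the 10 falls the etoposide library was at least 25 points from every other library. The vehicle lay at the far end of the 5 libraries in 5 of the rises and 7 of the falls, so those differences also hold the vehicle's own distance from the rest.

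The widest rise covered DRD5P1, a pseudogene of the dopamine receptor D5 gene, in a CpG island at chr2:91685001-91686000. Its levels were 43.4%, 98.6%, 59.1%, 39.6% and 54.8%, and 115 of 117 calls in the etoposide library were methylated (adjusted p = 6.49e-28, Fisher's exact test). All other libraries lay at or below 59.1%, which leaves a gap of 39.5 points. A pseudogene shares sequence with its parent, so calls there may have been split between near-identical copies, as they may at FAM157A, a member of a family of subtelomeric copies (36.4%, 75.9%, 44.4%, 41.8% and 55.9%).

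Another 2 of the rises with wide gaps lay far from any gene. The window at chr4:25988001-25989000, 126171 bases from SMIM20, read 36.5%, 84.6%, 51.8%, 46.3% and 58.2%, and that at chrX:94492001-94493000, 146570 bases from the pseudogene PAICSP7, read 16.9%, 56.4%, 19.9%, 29.3% and 15.2%. In both the etoposide library stood alone above the other 4, which lay closer together on the X chromosome than on chromosome 4. The remaining rise with a gap over 25 points was the promoter island of TRMT12, which encodes an enzyme of wybutosine synthesis in phenylalanine tRNA (chr8:124450001-124451000). It read 41.3%, 72.9%, 43.9%, 47.5% and 28.2%, with 144 calls in the etoposide library (adjusted p = 4.70e-07, Fisher's exact test).

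In the other 5 rises etoposide was the highest library by a smaller gap. The island in NPEPL1, a predicted aminopeptidase gene near the GNAS locus on chromosome 20, read 13.9%, 57.6%, 41.2%, 43.2% and 33.0%, so the vehicle was the outlying library on the other side. SPRN, which encodes Shadoo, a relative of the prion protein, had a promoter island at 34.8%, 66.8%, 56.3%, 54.2% and 26.5%. An intragenic island of PTPN2, a tyrosine phosphatase that dampens JAK-STAT signalling, read 60.6%, 96.9%, 82.3%, 49.3% and 84.9%. In STARD3, a cholesterol transfer protein of late endosomes, the level was 59.4%, 90.5%, 74.6%, 68.8% and 67.5%. Near FGFBP1 it was 53.1%, 91.7%, 81.0%, 90.6% and 66.4%, where theophylline came within 1.11 points of etoposide.

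The largest fall lay at the start of REC8, a meiotic cohesin subunit, whose promoter is printed above. The window chr14:24172001-24173000 read 85.1%, 35.4%, 40.4%, 53.8% and 67.6%, with 993 calls in the etoposide library (adjusted p = 3.14e-68, Fisher's exact test). Etoposide lay only 5.00 points below propyl gallate, while the vehicle was the highest of the 5 by a wider margin. An island in CCND1, which encodes cyclin D1, the partner of CDK4 and CDK6 in G1, read 73.1%, 26.04%, 65.0%, 57.2% and 41.1%, so here the gap below the next library was 15.1 points (chr11:69643001-69644000, adjusted p = 6.18e-34, Fisher's exact test). The one fall with a gap over 25 points was an intergenic window 8556 bases from GPR132, a G protein-coupled receptor gene, at chr14:105074001-105075000. It read 66.7%, 30.9%, 78.7%, 63.6% and 67.7%, with etoposide 32.7 points below the next library.

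Falls with gaps between 10 and 25 points were those in the long non-coding RNA gene LINC01163 (54.0%, 8.22%, 31.6%, 38.2% and 32.1%), in the homeobox gene TPRX2 (87.6%, 51.0%, 67.7%, 87.2% and 64.8%), in an intergenic window at chr2:239553001-239554000 (97.2%, 61.1%, 89.5%, 90.9% and 78.3%) and in CIBAR1-DT (58.3%, 28.4%, 48.7%, 66.4% and 39.7%). In IFRD2 the shore level was 34.1%, 0.671%, 41.8%, 19.6% and 8.22%, the etoposide library again the lowest. Smaller gaps went with TRRAP, a scaffold of histone acetyltransferase complexes, at 81.7%, 43.2%, 78.1%, 43.8% and 46.8%, and with the kinase gene MAST3 at 79.9%, 48.1%, 74.7%, 63.4% and 50.7%. In both genes etoposide shared its low level with 5-aza-dc, and in TRRAP with theophylline as well.

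Promoter windows, taken as those touching 1500 bases before to 500 bases after a start, numbered 44422, and 59 were called higher and 52 lower (0.250%). Besides those of DRD5P1, SPRN, TRMT12 and REC8, the largest rises by the same criteria were at ENSG00000279375 (18.1%, 49.2%, 19.3%, 22.6% and 43.6%) and at ENSG00000286694 (27.2%, 57.4%, 52.3%, 52.7% and 45.0%). COPS9, a subunit of the COP9 signalosome, fell from 34.9% in the vehicle to 5.11% in the etoposide library, with 25.9%, 22.7% and 10.1% in the others. GSPT1, the translation termination factor eRF3a, fell from 72.8% to 44.6%, with 47.4%, 55.8% and 59.9% in the others. At both of these promoters, printed above, the etoposide library was the lowest by a small gap (-5.04 and -2.73 points) and the vehicle the highest. The pseudogene ATP5MC2P4 on the X chromosome showed the reverse arrangement, at 92.5%, 64.2%, 91.1%, 100% and 95.3%, with etoposide alone below the rest. The promoter of LINC02315 read 43.1%, 14.9%, 27.6%, 50% and 16.2%.

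Without Fisher's test, windows were counted in which etoposide lay at least 25 points above or below each of the other 4 libraries, with at least 30 calls in every library. There were 10 above (0.00366%) and 31 below (0.0114%) among 272985 windows. The same count gave 7 above and 19 below for the vehicle, 9 and 27 for propyl gallate, 9 and 18 for theophylline, and 9 and 121 for 5-aza-dc. At 100 calls or more it gave 4 above and 2 below for etoposide. With a margin of 10 points there were 382 windows above and 935 below for etoposide, against 184 to 405 above and 623 to 930 below for the vehicle, propyl gallate and theophylline. Etoposide thus had somewhat more windows of its own below the rest than any library but 5-aza-dc, in the last count by 935 windows against 930 in the vehicle.

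Depth was low in these windows. Median calls were 50 in the etoposide library and 113 in the vehicle for the 31 lower windows and 72 and 173 for the 10 higher ones, against 443 and 535 over all 272985 windows. The etoposide library had fewer calls than the vehicle in 27 of the 31 (87.1%), where 80.4% of all windows did. Whether depth had a part in them was not tested. Of the 31, 22 (71.0%) lay outside islands, shores and shelves and 16 (51.6%) were at least 90% methylated in the vehicle, near the 64.7% and 55.8% of all windows. A shelf window in CXCR3, a chemokine receptor gene, read 98.7%, 59.3%, 97.8%, 96.9% and 95.04%, with 50 calls in the etoposide library. One outside islands, shores and shelves in MPC2, a subunit of the mitochondrial pyruvate carrier, read 63.9%, 30.7%, 63.2%, 64.3% and 63.1%, with the other 4 libraries close to each other. The widest gap was at chrX:5476001-5477000, where 0 of 32 calls were methylated in the etoposide library, which allows up to 10.7% (95% Wilson interval), against 53.4% to 64.6% in the others.

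ARHGEF15 read 94.9%, 54.4%, 91.0%, 90.5% and 90.5%, with 154 calls in the etoposide library, more than in the vehicle. The promoter of ST6GALNAC6, a sialyltransferase gene, read 75.0%, 44.7%, 74.8%, 71.2% and 75.3%. Other windows of the same kind lay in MARK2, WWOX, FYTTD1, CCNY and ATP2B2. Among the 10 higher windows, that at the promoter of GGCT, an enzyme of glutathione breakdown, read 46.9%, 85.1%, 42.3%, 60.0% and 40.2%. One in RSRP1 read 60.3%, 95.3%, 66.2%, 62.1% and 67.6%. In each of these the other 4 libraries lay closer to one another than to etoposide.

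Per gene, calls were pooled over the windows of the gene and of the 1500 bases upstream of it, for 22821 genes with at least 3 windows and 100 calls in every library. Etoposide lay above the other 4 libraries in 5027 genes (22%) and below them in 2512 (11%). The same count gave 3298 above and 2992 below for the vehicle, 4905 and 2598 for propyl gallate, 8461 and 1312 for theophylline and 1130 and 13407 for 5-aza-dc. For etoposide 194 and 93 of the genes lay at least 5 points outside, where the vehicle had 100 and 73, propyl gallate 183 and 96, theophylline 420 and 43 and 5-aza-dc 46 and 1490. When the levels of the windows were averaged instead, 40 genes lay at least 5 points above and 40 below, and 6 and 3 did so by both measures. By both measures the vehicle had 2 and 6, propyl gallate 1 and 7, theophylline 11 and 1 and 5-aza-dc 0 and 102, so the number for etoposide was within what the other libraries gave.

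The largest gaps in pooled level went with a different mix of windows. MIR34BHG, the host gene of the p53-regulated microRNAs miR-34b and miR-34c, went from 28.2% in the vehicle to 55.2% in the etoposide library, with 28.0% to 35.4% in the others. None of its 3 windows moved that far. The shore window went from 92.5% to 95.9% and the main island window from 1.44% to 4.95%, but the shore held 29.6% of the gene's calls in the vehicle and 55.4% in the etoposide library. The mean of its windows was 31.3% and 34.3%.

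LINS1 was 35.8 points higher than in the vehicle in pooled level and 4.33 points higher in mean window level, and the window at chr15:100568001-100569000 held 3.65% of its calls in the vehicle and 30.9% in the etoposide library. RPP30, a subunit of RNase P, went from 85.9% to 61.8% when pooled and from 63.2% to 59.8% as a mean of windows. The same held for DRD2, the dopamine receptor D2 gene (67.0% to 43.9% pooled, 32.2% to 31.0% as a mean), and for EREG, the growth factor epiregulin (28.2% to 7.94% pooled, 33.0% to 33.5% as a mean). Of the 10 genes named for the largest gap above, 8 were inside the range of the other libraries by the mean of windows and none kept 5 points, and of the 10 below only LINC02547 did. That gene read 74.3%, 65.1%, 74.4%, 75.8% and 74.4% as a mean, and its low value came from 1 window with 26 calls in the etoposide library.

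The 9 genes that passed 5 points by both measures were LINC02547, NPFFR2 and FAM102B below, and LINC01571, ENSG00000287560, MIR663B, ENSG00000276859, LINGO1-AS1 and LINC01164 above. NPFFR2, a neuropeptide FF receptor gene, read 46.4%, 39.5%, 46.5%, 51.6% and 46.8% as a mean of 3 windows. LINGO1-AS1 read 86.4%, 97.5%, 90.7%, 90.1% and 85.9%, and MIR663B 44.7%, 51.0%, 41.3%, 40.5% and 37.3%. ENSG00000276859 read 53.2%, 60.0%, 53.5%, 52.8% and 49.5%, and its windows at chromosome 20 lie inside GNAS.

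Neighbouring windows seldom moved together. Runs of at least 3 windows at most 5000 bases apart, each at least 5 points outside the other libraries, numbered 3 above and 2 below for etoposide. The vehicle and propyl gallate each had 0 above and 4 below, theophylline 1 and 0, and 5-aza-dc 0 and 57. The runs above lay in introns of RAD18, a ubiquitin ligase of post-replication repair that overlaps CAV3 there (chr3:8795001-8799000), upstream of RBPJL (chr20:45310001-45313000) and at chr8:46147001-46150000. In the second of these the shore window went from 89.3% in the vehicle to 98.5%, and the island windows from 24.6% to 31.5% and from 64.2% to 80.9%. In RAD18 the middle window, the one with most calls, went from 69.1% to 90.3%. The outer RAD18 windows had 20 and 30 calls in the etoposide library and did not pass Fisher's exact test (adjusted p = 0.791 and 0.274). The runs below lay at chr3:109367001-109373000, where the 3 windows read 78.0% to 79.2% in the etoposide and 88.4% to 98.8% in the vehicle library, and near DEPTOR-AS1 at chr8:119863001-119867000. At chr3:109367001-109373000 the adjusted p of the windows was 0.169, 0.0716 and 1.93e-04 (Fisher's exact test). Runs were taken without a minimum of calls and without a test. With at least 30 calls, 2 runs lay above and 2 below.

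Over segments of 1 Mb, 2815 of which held at least 20 windows, etoposide was above the other 4 libraries in 437 (15.5%) and below them in 78 (2.77%). Theophylline was above in 1799 and propyl gallate in 498. The largest gap above was at chr15:97000001-98000000, around ARRDC4, with 85.0% against at most 82.7% in the others. Its mean difference from the vehicle was 2.41 points and its median over 43 windows 0.864 points. The largest gap below was at chr2:89000001-90000000, an immunoglobulin kappa region, with 82.1% against at least 83.3%. There the mean difference was -1.19 points and the median -0.491 points, and of 38 windows 18 rose and 20 fell. This segment holds the window chr2:89767001-89768000, at 62.6% in the vehicle and 23.9% in the etoposide library, the latter from 60 calls. The segment was not tested without that window. Gaps of over 1 point were seen in 17 segments above and 4 below.

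Gene lists, among them those of etoposide's target and of the response to it, were set beside all windows. Over 10 lists with 147 genes, 140 had windows, 1877 windows in all. Of these, 191 (10.2%) passed Fisher's exact test at an adjusted p under 0.01 and 3 (0.160%) were called. Those shares were near the 10.1% and 0.191% of all windows. Loci that vary after reprogramming supplied 589 of the 1877 windows, the methylation machinery 249 and imprinted genes 235. The pooled shares therefore do not speak for each list. Of all windows that passed, 18376 were higher and 10790 lower in the etoposide library, so 63.0% were higher, and the directions within each list are to be read against that share. TOP2A, the topoisomerase that etoposide traps in dividing cells, had 2 windows and neither passed, its promoter reading 1.22%, 0.433%, 2.84%, 0% and 2.88%. TOP2B had no window. Of the 71 windows of topoisomerases and their repair genes 7 passed (9.86%), 4 higher and 3 lower. TOP1 had 2 of them, at 92.1% and 97.1% (chr20:41034001-41035000) and at 88.2% and 82.8% (chr20:41117001-41118000) in the vehicle and etoposide libraries.

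Among p53 and its targets 11 of 143 windows passed (7.69%), 6 higher and 5 lower. The called window was in an island of SESN1, a stress-responsive regulator of TORC1, at chr6:109046001-109047000. It read 59.3%, 93.6%, 86.2%, 88.3% and 83.6% (adjusted p = 6.76e-07, Fisher's exact test), so the vehicle stood apart more than etoposide did. A window upstream of BBC3, which encodes the proapoptotic protein PUMA, read 95.7%, 86.3%, 93.6%, 89.9% and 92.2%. For GADD45A, a growth arrest gene, an island window read 62.6%, 44.8%, 64.8%, 49.0% and 55.3%. One upstream of MDM2, the ubiquitin ligase of p53, read 90.8%, 97.2%, 92.9%, 94.0% and 92.5%, with etoposide the highest of the 5.

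Of the windows of double-strand break genes, 9 of 169 passed (5.33%), 8 of them higher (88.9%, over few windows). The kinase genes ATM and ATR each had 1, at 86.6% and 94.8% and at 92.9% and 98.4% in the vehicle and etoposide libraries. RAD50, a subunit of the MRN complex, had the single window that was lower, at 93.7% and 84.0%, and another that was higher, at 79.5% and 90.5%. Among genes of etoposide transport and metabolism 14 of 118 passed (11.9%), 8 higher and 6 lower. In ABCG2, an efflux transporter, an intron window read 94.3%, 80.1%, 95.4%, 96.7% and 95.7%, with etoposide alone low, while a promoter window read 86.1%, 98.8%, 93.1%, 95.6% and 90.7%.

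Pluripotency genes passed in 4 of 65 windows (6.15%), genes of differentiated cells in 5 of 132 (3.79%) and genes of the DNA methylation machinery in 30 of 249 (12.05%). Of these 30, 21 were higher (70%) and 9 lower, near the 63.0% of all windows that passed, and none was called. In UHRF1, which brings DNMT1 to replicated DNA, 6 of 27 windows passed, and the gene's mean window level was 83.0%, 84.7%, 83.4%, 83.2% and 81.6%. Loci that vary after reprogramming passed in 58 of 589 windows (9.85%). The median window difference was 0.338 points over all windows. It was -0.345 points for topoisomerases and their repair, 0.190 for p53 and its targets, 0.0375 for double-strand break genes, 0.280 for transport and metabolism, 0 for pluripotency genes, -0.0756 for genes of differentiated cells and 0.242 for the methylation machinery. For loci that vary after reprogramming it was 0.517, for the genes the study followed 0.0181 and for imprinted genes 0.635 points, the highest of the 10 lists.

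The 9 genes that the study followed had 8 of 106 windows past the threshold (7.55%), 5 higher and 3 lower, and none called. NOTCH4, a Notch receptor, had 3, all higher and all above the other libraries, of which that at chr6:32202001-32203000 read 85.0%, 98.4%, 87.8%, 91.3% and 90.9%. The Notch ligand JAG1 had 1, at 87.4%, 96.7%, 92.4%, 93.4% and 92.5%. The promoter of JUND, an AP-1 subunit, read 11.4%, 6.49%, 9.04%, 7.66% and 8.08% in the window that passed. In CCND2, cyclin D2, the window that passed was almost unmethylated, at 0.853% and 0.221% in the vehicle and etoposide libraries. RB1 and CREBBP each had 1 window that passed with etoposide inside the range of the others, and LIFR, CCNA2 and SMAD4 had none.

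Windows of imprinted genes passed the test more often. Of their 235 windows 45 passed (19.1%), 37 higher (82.2%, against 63.0% of all windows that passed) and 8 lower, and 2 were called, an H19 island window at 59.3%, 84.7%, 79.0%, 70.4% and 70.2% and a window in GNAS at 83.9%, 52.7%, 85.5%, 94.9% and 79.6%. The differences were most frequent in island windows of intermediate level, a split chosen after the values were seen. Among 31 island windows whose mean in the other 4 libraries was 30% to 70%, 18 passed (58.1%), 17 higher and 1 lower, and 11 of the 17 lay above all other libraries. Their median difference was 7.44 points, against 0.113 points over all 2881 island windows of that level, of which 27.3% passed, 414 higher and 372 lower. Without the limit to islands there were 50 imprinted windows of that level, and 21 passed (42%), 19 higher and 2 lower. Their median difference was 4.30 points, against 0.282 points over all 11848 windows of that level, of which 13.1% passed. The 31 island windows were also deeper, with a median of 1232 calls in the library with fewest, against 960 in the 2881. More calls let smaller differences pass, and the part of depth in these shares was not tested.

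Differences at these imprinted windows were common between all libraries, but not in 1 direction. In the 6 pairs without etoposide 35.5% to 58.1% of the 31 windows passed, with medians from -1.04 to 2.99 points and with 4 to 11 windows higher and 5 to 10 lower. The mean over the 31 windows was 48.3% in the vehicle, 54.9% in the etoposide library, and 48.0%, 49.99% and 48.7% after propyl gallate, theophylline and 5-aza-dc. The windows belong to 13 genes and several share a control region, so they are not independent, and 9 of the genes had a window that passed higher.

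PLAGL1, a zinc finger gene whose start is shared with the non-coding HYMAI, had the widest pair. Its promoter window chr6:144008001-144009000 read 36.6%, 51.1%, 43.4%, 39.1% and 33.6% with 4455 calls in the etoposide library, and its neighbour at chr6:144007001-144008000 read 39.9%, 64.8%, 48.7%, 52.6% and 41.4%. The etoposide library was the highest in both, by 7.73 and 12.2 points. A shore window of PLAGL1 at chr6:144062001-144063000 also passed but went the other way. It read 69.6%, 52.8%, 68.3%, 61.9% and 56.6%, with etoposide the lowest library. At the GNAS locus, which encodes the stimulatory G protein alpha subunit and several imprinted transcripts, the promoter window chr20:58888001-58889000 read 62.3%, 77.6%, 31.9%, 31.4% and 41.4%. There etoposide and vehicle were both high and the other 3 libraries low. An island window of NNAT, neuronatin, read 52.6%, 67.3%, 42.2%, 51.2% and 51.8%.

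L3MBTL1, a polycomb-related gene, had 2 island windows, at 62.0%, 70.1%, 54.6%, 64.2% and 57.2% and at 56.8%, 64.2%, 50.6%, 62.3% and 48.0%. An island of ZNF331 read 52.4%, 61.1%, 56.5%, 52.0% and 54.8%. At SNRPN, the centre of the Prader-Willi region, levels were similar, with none of its 3 island windows past the threshold and means of 34.1% and 32.8% in the vehicle and etoposide libraries. The island window that passed lower was in KCNQ1OT1, the non-coding RNA of the KCNQ1 domain, at 57.0%, 47.5%, 52.5%, 64.4% and 49.6%, while its neighbour read 39.3%, 46.4%, 31.3%, 52.9% and 44.7%. MEG3 and GRB10 had etoposide levels inside or near the range of the others.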

How the data were processed

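CpG methylation was measured by RRBS in 5 libraries, 1 per condition. Per the submitters' processing notes, reads were handled with FastQC 0.11.7, Trim Galore 0.5.0, Bismark 0.20.0, SAMtools 1.9 and methylKit 1.10.0 on hg38. The authors summed CpG calls over windows of 1000 bases, scaled the coverage between libraries, filtered windows by coverage and kept those shared by the 5 libraries, so the window totals are not the depth of whole libraries. The deposited table holds counts for the vehicle control. For the other 4 libraries the values are a score, made by the authors from counts by multiplication and rounding. The β-value, a fraction that the authors derived per window, is used here as deposited, in percent. All per-sample columns of that table were used (0 left out).

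Scale factors (1.18 for etoposide) were found from whole numbers missing among low coverages, and calls before scaling were worked back. Scaling them again returned at least 99.9% of the coverages. Fisher's exact test, adjusted over all windows by the Benjamini-Hochberg procedure, had been planned on the counts and was run on the recovered calls. A window was called at an adjusted p under 0.01 and at least 25 percentage points. On simulated data the test called 199 of 200 changed windows and 0 unchanged ones among 288391. The simulated calls held counting error only, with no scatter between libraries, and the planted changes were well past 25 points. The 0 therefore does not carry over to the measured libraries, where the 6 pairs without etoposide gave 503 to 1086 called windows. All other measures have no test. Gaps are distances to the nearest of the other 4 libraries.

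Windows named are the 10 largest rises and falls (5 each for promoters) with an adjusted p under 0.01, at least 100 calls in every library and etoposide outside the other libraries. Genes named have the 10 largest gaps each way, and list members a called window or a place among the 9 genes the study followed. Other windows and list members named were chosen after their values were seen. The members, the gene lists and these rules were chosen with earlier results of these data known. Gene and promoter positions are those of GRCh38. Of 147 list genes, 140 had windows. Precision follows the calls per window, with a median of 413 in the etoposide library. Alternatives were other thresholds, coverage minimums, scaled or thinned calls, other references, autosomes only, other gene windows and leaving out 5-aza-dc. Analyses used Python 3.11.15, numpy 2.4.6, pandas 2.3.3, scipy 1.17.1, numba 0.67.0 and matplotlib 3.10.9.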

Additional observations from a re-analysis of the deposited data

How the results depend on the processing

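With an adjusted p under 0.001, 190 windows were higher and 164 lower in etoposide than in vehicle by Fisher's exact test. With a difference of at least 10 points these were 3928 and 2757, with 40 points 50 and 71, with at least 100 calls 59 and 51, and with calls divided by 5 they were 9 and 4. Against the 5-aza-dc library 815 windows were higher. The mean difference was 0.338 points as a median, 0.488 with at least 100 calls, 0.502 on calls before scaling, 0.385 against the mean of the other 4 libraries and 0.156 against their median. Windows with etoposide at least 25 points above or below all others numbered 382 and 935 at 10 points, 0 and 1 at 40 points, 25 and 125 with no minimum of calls, 4 and 2 with at least 100 calls, and 16 and 57 when 5-aza-dc was left out. Genes above and below the other libraries numbered 7797 and 3771 with the windows that the table assigns to them. Those below numbered 4898 with promoter windows only and 5942 without 5-aza-dc. Runs above and below numbered 44 and 41 at a margin of 2 points and 0 and 0 at 10 points or with at least 4 windows, and 10 were below without 5-aza-dc, as were 380 segments. With promoter windows only, 0 list windows were called. The settings that ask for fewer calls or smaller differences, or that leave out the 5-aza-dc library, enlarge these counts by construction. Those that ask for a lower adjusted p, more calls or larger differences reduce them by construction. For the others the cause was not tested.

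Directions turned for some genes named by pooled level. With the mean of window levels the difference was -0.300 points for MAT2B, -0.625 for WASH3P, 0.517 for EREG (as was its gap), 4.03 for ENSG00000230506 and 0.632 for IL13RA1. With promoter windows only it was -0.229 for LINS1, -1.15 for MAT2B and 0.0928 for EREG, and with the windows assigned by the table -1.13 for ENSG00000289228. The 5′ UTR class was 0.161 points higher with at least 100 calls. Of the remaining comparisons of single genes or classes, 57 stayed within the limits set and 97 moved without turning.

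No paired analysis was possible because each condition has 1 library. Leaving out a replicate was not done for the same reason. The depth of a window limits the precision of its level, and the part of depth in the counts above was not tested.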
